A study of Homo sapiens with 4 samples.

Results

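Canonical NF-kB signalling was described through 10 genes that encode its transcription factor subunits, the IkB proteins that bind them, a feedback inhibitor and the activating kinase. They were the subunit genes NFKB1, REL and RELA, the cytoplasmic inhibitor genes NFKBIA, NFKBIB and NFKBIE, the nuclear IkB genes NFKBIZ and BCL3, the feedback inhibitor gene TNFAIP3 and the kinase gene IKBKB. The genes were taken by symbol and role, in a choice made with earlier results of these data known, and all 10 were present among the 25277 symbols of the table, each in 1 row. All 10 also had a mean of at least 1 FPKM (fragments counted relative to transcript length and to all mapped fragments), the filter that left 11484 symbols for testing.

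The libraries came from Mino and Z138, established human cell lines of mantle cell lymphoma, a B cell cancer. Each line was stably given a doxycycline-inducible (tet-on) vector that carried either a short hairpin against the kinase BTK or a control, named sc4 in the labels. All cultures, controls included, received doxycycline for 48 hours. There was 1 library for each of the 4 groups (Z138 shBTK, Z138 control, Mino shBTK and Mino control), so no value has a replicate within a line. The labels do not say what sc4 expresses or whether a stable line is 1 clone, and 1 hairpin construct against BTK is labelled, so effects of the hairpin on other genes cannot be told apart from loss of BTK.

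In an unstimulated B cell, NF-kB dimers are held in the cytoplasm by IkB proteins. Antigen receptor signals pass through BTK, phospholipase C gamma and protein kinase C beta and on to the IkB kinase, whose beta subunit is encoded by IKBKB. The kinase marks IkB proteins for degradation, and the freed dimers enter the nucleus and switch on genes that include several of their own inhibitors. NFKBIA, NFKBIE, NFKBIZ, BCL3, TNFAIP3, NFKB1 and REL are known as genes that NF-kB itself induces, whereas RELA, NFKBIB and IKBKB are not usually counted among them.

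The target of the hairpin was examined first. BTK was at 9.84 FPKM in the Mino shBTK library and 37.0 in the Mino control, and at 12.4 in the Z138 shBTK library and 51.0 in the Z138 control. The limma test across lines gave a log2 difference of −1.88 for BTK (SE 0.13), with an adjusted p of 0.000964 and both hairpin libraries below their controls. That adjusted p was 0.101 with no filter on low values and 1.00 without the cell line as a term. The columns summed to between 669013 and 740192 FPKM, and read depth is unknown, so no counting interval is given. The B cell markers CD79A, CD79B, MS4A1 and PAX5 were at 14.5 FPKM or more in every library. CCND1, the cyclin D1 gene that marks mantle cell lymphoma, was at 600 and 591 FPKM in the Z138 shBTK and control libraries but at 2.62 and 3.18 in the Mino shBTK and control libraries, so by this marker the libraries labelled Mino go against the labelled disease. SOX11, another marker of the disease, was at 19.8 to 23.6 FPKM in all 4. Whether the cells labelled Mino are that line was not tested, and this limit applies to every Mino value and every difference between the lines. Markers of T cells and myeloid cells were at 2.07 FPKM or less, with the T cell gene CD2 at 0 in all 4. The epithelial gene EPCAM was at 7.56 and 7.29 FPKM in the Mino shBTK and control libraries and at most 0.0142 in Z138, and the stromal gene COL1A1 was at most 4.55, and their part in the line differences was not tested.

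The promoter windows of the genes were examined for the sequence that NF-kB binds. RefSeq windows (GRCh38.p14, 250 bases before to 50 after a start) were matched by symbol for 8 of the 10 genes, with 12 windows in all, and NFKBIE and IKBKB had none. The 10-base kappa B consensus was searched on both strands, and a looser pattern of 3 G, any 5 bases and 2 C was searched beside it. The consensus was found for 7 of the 8 genes and in 8 of their 12 windows, against 5.91% of all 35116 windows, while the looser pattern was in 12 of 12 and in 58.7% of all. RELA was the gene with no match to the consensus in these windows. A match is a description of the sequence, and binding was not measured here. The 250 bases before the start are shown for REL and TNFAIP3, which were lower in the Mino hairpin library, for NFKBIA, the most abundant of the 10 transcripts, and for both starts of NFKBIZ, which differed most between the lines, with the matches in capitals.

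REL (chr2:60881324-60881573, plus strand): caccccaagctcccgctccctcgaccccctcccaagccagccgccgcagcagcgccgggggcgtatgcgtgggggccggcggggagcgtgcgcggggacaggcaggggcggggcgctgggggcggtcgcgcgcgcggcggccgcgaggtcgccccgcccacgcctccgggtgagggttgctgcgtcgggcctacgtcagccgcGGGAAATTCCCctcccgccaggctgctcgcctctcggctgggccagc

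TNFAIP3 (chr6:137867009-137867258, plus strand): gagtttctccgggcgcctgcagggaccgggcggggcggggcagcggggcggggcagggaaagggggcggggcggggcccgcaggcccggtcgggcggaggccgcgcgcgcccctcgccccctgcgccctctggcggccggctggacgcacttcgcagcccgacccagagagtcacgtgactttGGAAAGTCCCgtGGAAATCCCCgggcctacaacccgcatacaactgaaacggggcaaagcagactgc

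NFKBIA (chr14:35404750-35404999, minus strand): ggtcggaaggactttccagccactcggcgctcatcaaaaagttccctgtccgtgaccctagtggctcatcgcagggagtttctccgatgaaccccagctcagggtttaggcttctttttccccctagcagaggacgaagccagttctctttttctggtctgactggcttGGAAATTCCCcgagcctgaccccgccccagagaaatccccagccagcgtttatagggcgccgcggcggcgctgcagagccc

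NFKBIZ, first start (chr3:101827740-101827989, plus strand): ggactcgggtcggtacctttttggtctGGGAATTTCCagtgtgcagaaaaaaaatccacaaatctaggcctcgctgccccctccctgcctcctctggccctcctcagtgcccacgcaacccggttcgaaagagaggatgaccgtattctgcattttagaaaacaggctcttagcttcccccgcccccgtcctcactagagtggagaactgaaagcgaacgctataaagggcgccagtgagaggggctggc

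NFKBIZ, second start (chr3:101849264-101849513, plus strand): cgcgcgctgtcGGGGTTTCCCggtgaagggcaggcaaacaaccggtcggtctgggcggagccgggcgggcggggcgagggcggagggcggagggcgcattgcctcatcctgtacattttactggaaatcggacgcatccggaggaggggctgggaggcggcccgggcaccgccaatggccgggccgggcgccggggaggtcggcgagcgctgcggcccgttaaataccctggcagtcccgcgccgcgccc

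The capitals in REL are a pair of overlapping matches, 1 on each strand, that begin 47 and 46 bases before the start. TNFAIP3 held 2 matches at 67 and 55 bases before the start. The single match of NFKBIA lay 81 bases before its start and read GGGAATTTCC on the opposite strand. The same letters were found in NFKB1, 49 bases before its first start, and in NFKBIB, 28 bases before its second start. The match of BCL3 lay just after its start and read GGGACTTCCC on the opposite strand.

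Levels were then compared between the lines, with values for the shBTK and control library of each line in that order. The limma test between the lines took the hairpin and control library of a line as its 2 libraries. Its p-values therefore do not measure the spread between separate cultures of a line. FPKM is scaled to transcript length, so levels of different genes were set side by side within a library. Such comparisons are approximate, since this scaling does not remove effects of GC content or of reads shared between transcripts. NFKBIA was the most abundant of the 10 in every library, at 77.6 and 79.0 FPKM in Z138 and at 129 and 146 FPKM in Mino. The main contrast lay in the nuclear IkB genes and REL, which were lower in Z138 than in Mino. In a bulk library, fewer cells that express a gene and less of its RNA per cell cannot be told apart.

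**Figure D1:**
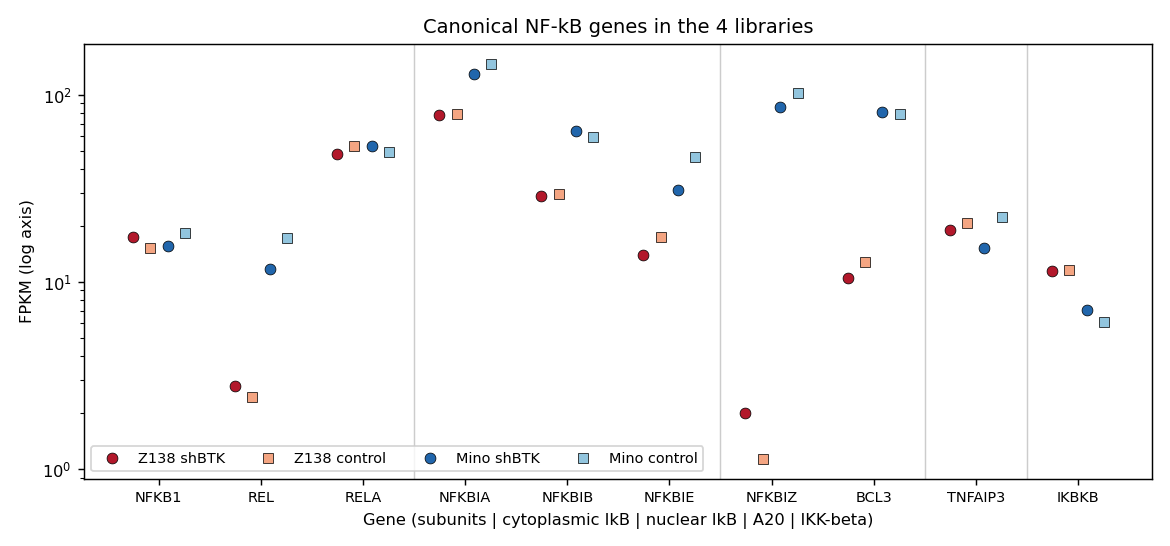
FPKM on a log axis of each gene in the 4 libraries, with hairpin libraries as circles and control libraries as squares, Z138 in red and Mino in blue; grey lines separate the roles. NFKBIZ sits at 1.999 and 1.13 FPKM in the Z138 shBTK and control libraries and at 85.7 and 102 in the Mino ones, while RELA sits between 48.3 and 53.3 in all 4.

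Among the subunit genes, RELA, which encodes the p65 activating subunit, was the most even. It was at 48.3 and 53.3 FPKM in Z138 and at 53.0 and 49.5 in Mino, so the lines overlapped. NFKB1, which encodes p105 and its processed DNA-binding form p50, was at 17.3 and 15.1 FPKM in Z138 and at 15.5 and 18.2 in Mino, and again the lines overlapped. REL, which encodes c-Rel, the subunit most characteristic of lymphocytes, was at 2.79 and 2.44 FPKM in Z138 and at 11.7 and 17.2 in Mino, with both Mino libraries above both Z138 libraries. Its log2 difference, Z138 minus Mino, was −2.07 (SE 0.18, adjusted p = 2.35e-05 in limma). In the GENCODE annotation a second transcript, AC010733.2, covers 50.7% of the exonic bases of REL on the same strand, so the value of REL is uncertain where reads were shared.

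The 3 cytoplasmic IkB genes were all lower in Z138. NFKBIA encodes IkB-alpha, the inhibitor that is degraded fastest and remade as part of the response, and its log2 difference was −0.80 (SE 0.12, adjusted p = 0.00048 in limma). NFKBIB, which encodes IkB-beta, was at 28.7 and 29.3 FPKM in Z138 and at 64.3 and 59.8 in Mino, a difference of −1.07 (SE 0.12, adjusted p = 0.000113). NFKBIE, which encodes IkB-epsilon, an inhibitor prominent in B cells, was at 13.9 and 17.3 FPKM in Z138 and at 31.0 and 46.2 in Mino, a difference of −1.23 (SE 0.13, adjusted p = 8.16e-05). For each of the 3, both Z138 libraries lay below both Mino libraries.

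The nuclear IkB proteins act on chromatin, where BCL3 partners p50 and p52 homodimers and NFKBIZ, which encodes IkB-zeta, helps switch on secondary response genes. NFKBIZ was at 1.999 and 1.13 FPKM in Z138 and at 85.7 and 102 in Mino, the widest gap of the 10, with a log2 difference of −5.22 (SE 0.18, limma adjusted p = 2.8e-07). BCL3 was at 10.5 and 12.8 FPKM in Z138 and at 80.7 and 79.0 in Mino, a difference of −2.69 (SE 0.13, adjusted p = 1.3e-06). Both genes were among the 3 most abundant of the 10 in Mino, whereas in Z138 NFKBIZ was the scarcest and BCL3 ranked near IKBKB.

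TNFAIP3 encodes A20, a ubiquitin-editing enzyme that shuts off signalling above the kinase. It was at 18.9 and 20.7 FPKM in Z138 and at 15.1 and 22.2 in Mino, and the lines overlapped (log2 difference 0.10, SE 0.14, adjusted p = 0.551 in limma). IKBKB was the 1 gene of the 10 that was higher in Z138 and passed the test, at 11.4 and 11.6 FPKM in Z138 and 7.12 and 6.14 in Mino (log2 difference 0.72, SE 0.14, adjusted p = 0.0021). In the limma fit 6 of the 10 genes were lower and 1 was higher in Z138, beside 38.8% of all tested symbols called lower and 28.7% called higher. With 67.4% of symbols called in either direction, 7 called of 10 is close to the share over all symbols.

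**Figure D2:**
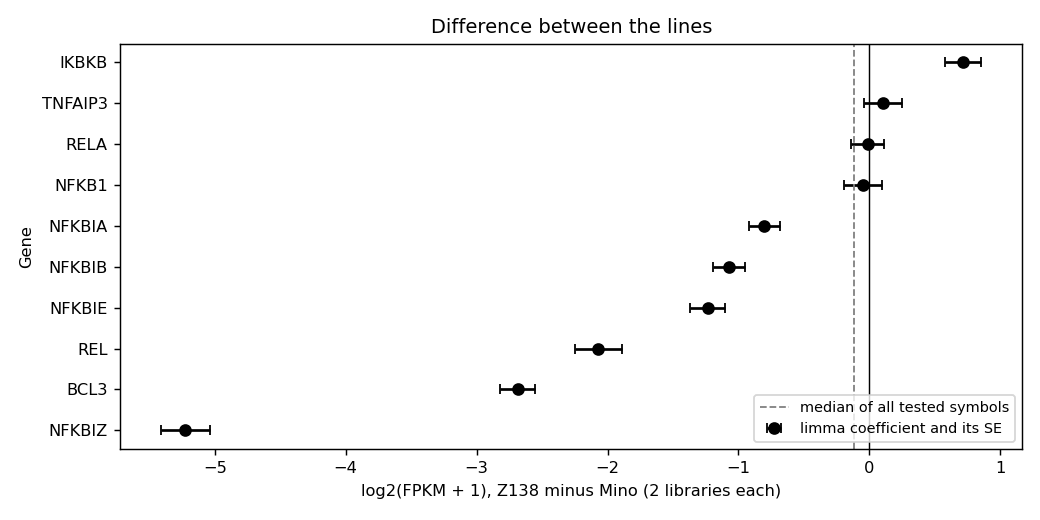
Log2 difference in level, Z138 minus Mino, for each gene, from the limma fit on 2 libraries per line, with bars for the standard error and a dashed line at the median of all tested symbols (−0.12). NFKBIZ, BCL3 and REL lie beyond −2 and TNFAIP3, RELA and NFKB1 lie near 0.

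The 3 genes near 0 changed sign with the scaling of the columns. The median difference over all tested symbols was −0.12 as deposited, −0.23 after rescaling the columns to equal sums and −0.00 after median ratio scaling. The difference of RELA was −0.01 as deposited and 0.12 after median ratio scaling, that of NFKB1 was −0.05 and 0.08, and that of TNFAIP3 was 0.10 as deposited and −0.01 with equal column sums. The other 7 genes kept their sign and passed in limma under all 8 alternatives tried. Only the pseudocount and the column scalings could move the difference itself, and the remaining alternatives changed its error or adjusted p alone. The GC and length correction was made within each line, so such trends between the lines were not removed.

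Ratios taken within a library do not depend on that scaling. The summed FPKM of NFKBIA, NFKBIB and NFKBIE stood at 1.76 and 1.77 times the summed FPKM of NFKB1, REL and RELA in the Z138 shBTK and control libraries. In Mino it stood at 2.79 times in the shBTK and 2.97 times in the control library. There was thus less cytoplasmic inhibitor transcript per subunit transcript in Z138 in both kinds of culture. The size depended on how genes were weighted, since as log2 of Z138 over Mino in the controls this ratio was −0.74 from sums and −0.12 from geometric means. The nuclear IkB genes summed to 0.182 and 0.196 of the subunit sum in Z138 and to 2.07 and 2.13 times it in Mino.

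The make-up of the subunit pool also differed. REL supplied 4.08% and 3.44% of the subunit FPKM in the Z138 shBTK and control libraries, against 14.6% in the Mino shBTK and 20.2% in the Mino control library. RELA supplied 70.7% and 75.2% in Z138 and 66.1% and 58.4% in Mino, and NFKB1 between 19.4% and 25.3% in all 4. NFKBIA supplied between 57.5% and 64.6% of the cytoplasmic IkB FPKM in every library.

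**Figure D3:**
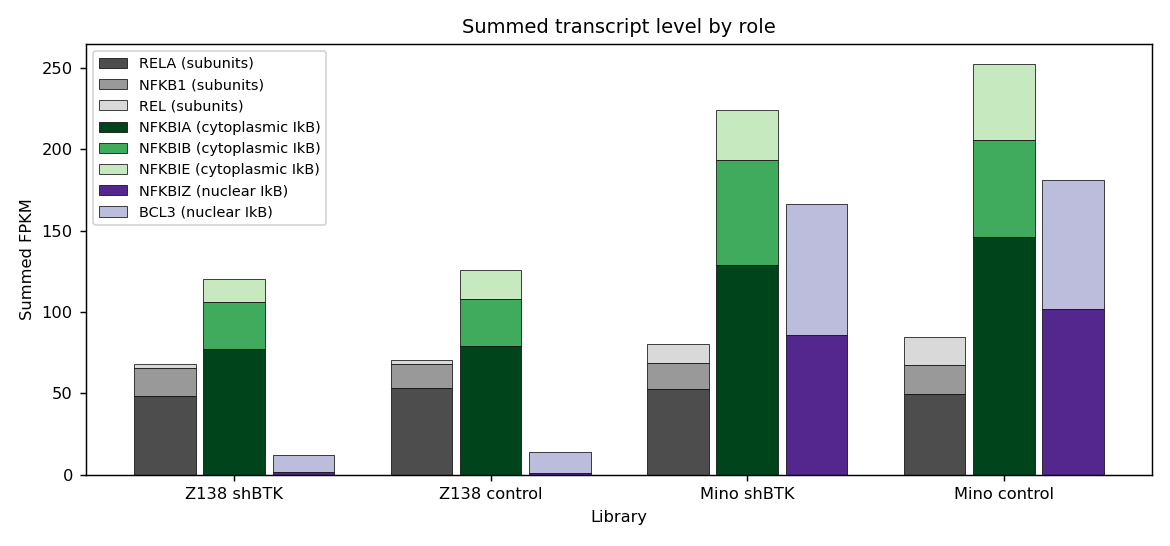
Summed FPKM of subunit, cytoplasmic IkB and nuclear IkB genes in each library, stacked by gene. The nuclear IkB bars reach 12.5 and 13.9 FPKM in the Z138 shBTK and control libraries and 166 and 181 in the Mino shBTK and control libraries.

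The hairpin and control libraries of each line were compared next, which asks whether transcripts of the pathway downstream of BTK differ once BTK is reduced. Each line has 1 library per group, so these are sizes with no test, given as the log2 ratio of FPKM + 1. The added 1 makes ratios of scarce transcripts look smaller. A ratio counted as past the threshold at 0.32 or more on the log2 scale in either direction. In Mino, NFKBIE, TNFAIP3 and REL were below the lower threshold, 3 of the 10 beside 5.75% of all tested symbols, and none of the 10 was past the upper one, beside 4.44%. In Z138, none was below the lower threshold, beside 4.17% of all tested symbols, and NFKBIZ was above the upper one, beside 5.32%. The gene that came nearest to the threshold without reaching it was NFKBIE in Z138, at −0.29.

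In Mino, NFKBIE was at 31.0 FPKM in the hairpin library and 46.2 in the control, a log2 ratio of −0.56. TNFAIP3 was at 15.1 FPKM in the hairpin library and 22.2 in the control, a ratio of −0.52. REL was at 11.7 FPKM in the hairpin library and 17.2 in the control, also a ratio of −0.52. All 3 are genes known as induced by NF-kB, and the hairpin library held 67.1%, 68.2% and 68.1% of the control level. None reached 1.5-fold, a size that 1.24% of all tested symbols reached on the lower side in Mino.

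The other induced genes in Mino differed less. NFKBIA was at 129 FPKM in the hairpin library and 146 in the control (log2 ratio −0.18), and NFKB1 at 15.5 and 18.2 (−0.21). NFKBIZ was at 85.7 FPKM in the hairpin library and 102 in the control (−0.25). BCL3 was an exception, at 80.7 FPKM in the hairpin library and 79.0 in the control (0.03). Of the 7 induced genes 6 were thus below 0 in Mino, beside 51.9% of all tested symbols, with a median of −0.25 against −0.01 over all symbols. The 3 genes that are not usually counted as induced were all slightly above 0, at 0.10 for RELA, 0.10 for NFKBIB and 0.19 for IKBKB. The same split did not hold in Z138, where 4 of the 7 induced genes and all 3 others were below 0, with medians of −0.03 in both sets.

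In Z138 the ratios followed another order. NFKBIE was at 13.9 FPKM in the hairpin library and 17.3 in the control, a log2 ratio of −0.29. BCL3 was at 10.5 FPKM in the hairpin library and 12.8 in the control (−0.26), RELA at 48.3 and 53.3 (−0.14) and TNFAIP3 at 18.9 and 20.7 (−0.13). NFKBIA, NFKBIB and IKBKB lay within 0.03 of 0 on the log2 scale. Above 0 stood NFKB1, at 17.3 FPKM in the hairpin library and 15.1 in the control (0.18), and the scarce transcripts REL, at 2.79 and 2.44 (0.14), and NFKBIZ, at 1.999 and 1.13 (0.49). Below 0 in Z138 were 7 of the 10, beside 43.7% of all tested symbols. With equal column sums there were 4, beside 35%, since NFKBIA, NFKBIB and IKBKB were then above 0. The median of the 10 was −0.03 in Z138, beside 0.03 over all tested symbols, but 0.03 with equal column sums. In Mino it was −0.20, beside −0.01.

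Ratios in Z138 went down with the GC content of the transcript (Spearman rho −0.57 across 10477 genes, which are not independent replicates), and in Mino they went slightly up (rho 0.11). The genes span 38.7% GC in REL to 67.4% in BCL3. With trends on GC content and length removed, REL in Z138 was at −0.05 in place of 0.14, BCL3 at −0.17 in place of −0.26, NFKBIE at −0.19 in place of −0.29 and NFKBIB at 0.07 in place of −0.03. In Mino the ratios of NFKBIE, TNFAIP3 and REL were then −0.59, −0.50 and −0.41, and those 3 were past the lower threshold as before.

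**Figure D4:**
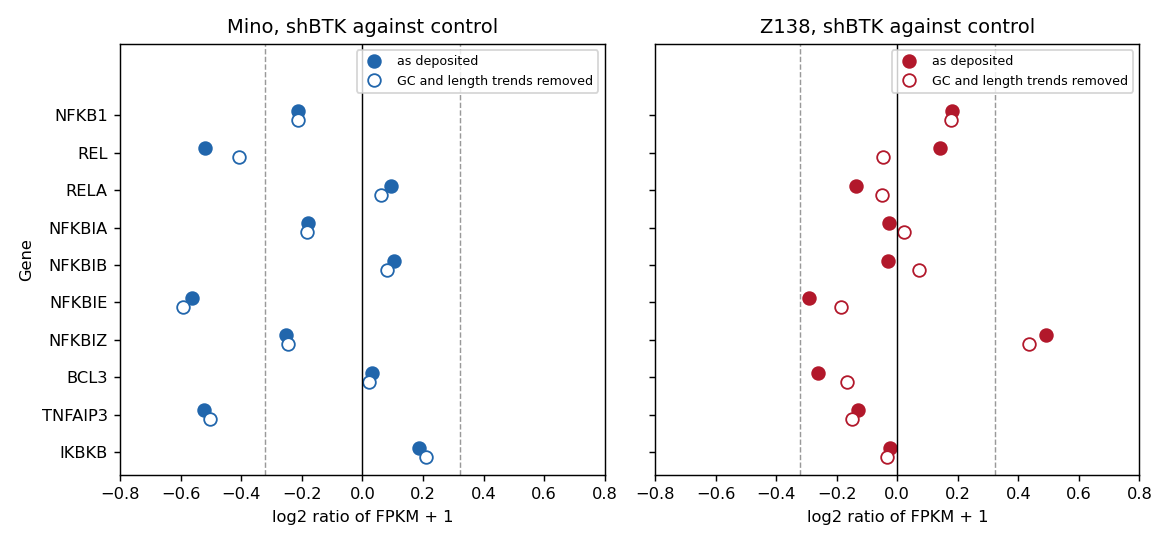
Log2 ratio of FPKM + 1, shBTK against control, for each gene in Mino and Z138, as deposited (filled) and with GC and length trends removed (open); dashed lines mark the threshold of 0.32 in each direction. In Mino NFKBIE, TNFAIP3 and REL lie beyond the lower line in both forms, and in Z138 NFKBIZ alone lies beyond a line.

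Across both lines none of the 10 genes passed the test for the hairpin in limma, where 0.122% of all tested symbols passed. At an unadjusted p under 0.05 there was 1 of the 10, NFKBIE, beside 2.79% of all tested symbols. NFKBIE had a mean log2 difference of −0.43 (SE 0.13), an unadjusted p of 0.0127 and an adjusted p of 1.00 in limma, with both hairpin libraries below their controls. TNFAIP3 had −0.33 (SE 0.14, unadjusted p = 0.054, limma adjusted p = 1.00) and NFKBIA −0.10 (SE 0.12), and these 2 also had the same sign in both lines as deposited. The Z138 ratio of NFKBIA was 0.03 with equal column sums and 0.02 with GC and length trends removed, so its shared sign was lost there. The other 7 genes had ratios of opposite sign in the lines, beside 56.2% of all tested symbols, with mean differences from −0.19 for REL to 0.12 for NFKBIZ. In this fit each gene's error combines the gap between its Mino and Z138 ratios with a spread estimated over all tested symbols.

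Within-library ratios restate the same values without the scaling of the columns, and they are no separate evidence. NFKBIE stood at 0.481 of the level of NFKBIB in the Mino shBTK library and 0.773 in the Mino control. In Z138 it stood at 0.486 in the shBTK library and 0.589 in the control. NFKBIB itself was at 64.3 FPKM in the Mino shBTK library and 59.8 in the Mino control, which widens the Mino gap. The level of TNFAIP3 relative to RELA was 0.286 in the Mino shBTK library and 0.448 in the Mino control, but 0.390 in the Z138 shBTK library and 0.389 in the Z138 control. REL stood at 0.221 of RELA in the Mino shBTK library and 0.347 in the Mino control. In Z138 REL stood at 0.0578 of RELA in the shBTK library and 0.0458 in the control. With GC and length trends removed, REL and RELA both had a log2 ratio of −0.05 in Z138. NFKBIE was thus lower relative to NFKBIB in both hairpin libraries, and TNFAIP3 and REL were lower relative to RELA in the Mino hairpin library.

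The rest of the pathway was described with 4 lists, which share some genes. The lists were chosen with earlier results of these data known, so their counts beside the shares of all symbols are descriptions and not tests. BIRC3, CD40, RELB, NFKB2 and TNFRSF13C were in both the target and the alternative pathway list. TNIP1 was in both the target list and that of other brakes. NF-kB target genes other than the 10 had 27 of 34 tested. Of the 27, 26 were below 0 in Mino and 16 in Z138, beside 51.9% and 43.7% of all tested symbols. Their medians were −0.33 and −0.02. Past the lower threshold were 14 in Mino (51.9%) and 5 in Z138 (18.5%), beside the 5.75% and 4.17% of all tested symbols. Past the upper threshold were 0 in Mino and 2 in Z138, beside 4.44% and 5.32%. None of the 27 passed across lines in limma in either direction, beside 0.122% of all tested symbols. The chemokine genes CCL3 and CCL4 and the stress response gene GADD45B had the largest mean ratios among targets whose sign was shared by the lines. GADD45B was at 37.9 FPKM in the Mino shBTK library and 50.8 in the Mino control, and at 70.5 in the Z138 shBTK library and 95.8 in the Z138 control. CCL3 was at 85.0 FPKM in the Mino shBTK library and 130 in the Mino control (log2 ratio −0.60), and at 18.99 in the Z138 shBTK library and 60.4 in the Z138 control (−1.62). For CCL4 the Mino ratio was −0.65 and the Z138 ratio −1.30. Column scaling matters for medians this near 0 in Z138, where the median of all tested symbols was 0.03 as deposited, 0.07 with equal column sums and −0.01 with median ratio scaling. Of the 7 genes not tested, TNF, LTA, LTB and IER3 were listed at 0 in every library, as were 7627 of the 25277 symbols of the table. Whether such genes were not expressed or were missed by the mapping or annotation was not tested. With the genes shared with other lists left out, 21 targets were tested, of which 20 were below 0 in Mino and 12 in Z138. Their medians were −0.39 and −0.02.

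Genes between the antigen receptor and the kinase lay on both sides of 0. Of 15, all tested, 8 were below 0 in Mino and 5 in Z138, beside 51.9% and 43.7% of all tested symbols. Their medians were −0.06 and 0.09 (0.03 in Z138 with GC and length trends removed). Across lines 0 of these passed in limma in either direction, beside 0.122% of all tested symbols. The adaptor gene BCL10 was at 10.3 FPKM in the Mino shBTK library and 10.1 in the Mino control, and at 8.78 in the Z138 shBTK library and 6.51 in the Z138 control. MAP3K7, which encodes the kinase TAK1, stood at 0.15 (log2 ratio) in Mino and at 0.30 in Z138. IKBKG, which encodes the regulatory subunit NEMO, had −0.06 and −0.22.

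Other brakes on the pathway, 15 tested of 16, had a median of −0.06 in Mino, where 11 were below 0, and 0.02 in Z138, where 6 were, beside the same shares of all symbols. None passed across lines in limma, beside 0.122% of all tested symbols. NFKBIL1, the gene not tested, was listed at 0 in every library. TNIP1, a partner of A20, was at 98.3 FPKM in the Mino shBTK library and 135 in the Mino control, and at 45.6 in the Z138 shBTK library and 46.2 in the Z138 control. NFKBID, a further nuclear IkB gene, stood at −0.12 (log2 ratio) in Mino and at −0.26 in Z138, and N4BP1 had 0.07 and 0.16. Of the 9 alternative pathway genes 8 were tested, and their median ratio was −0.03 for Mino and −0.05 for Z138. Below 0 were 6 in Mino and 5 in Z138, beside 51.9% and 43.7% of all tested symbols. The lower threshold was passed by 2 in Mino and 1 in Z138, beside 5.75% and 4.17%. The upper one was passed by 0 in Mino and 1 in Z138, beside 4.44% and 5.32%. Across lines 0 passed in limma, beside 0.122% of all tested symbols. The Z138 median of these genes was 0.05 with GC and length trends removed, so its sign turned. MAP3K14, which encodes the kinase NIK, was at 10.4 FPKM in the Mino shBTK library and 14.2 in the Mino control (log2 ratio −0.42) and had −0.02 in Z138. The receptor gene TNFRSF13C had −0.02 in Mino and −0.35 in Z138, and BIRC2, a ubiquitin ligase that restrains NIK, had 0.01 and 0.28.

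**Figure D5:**
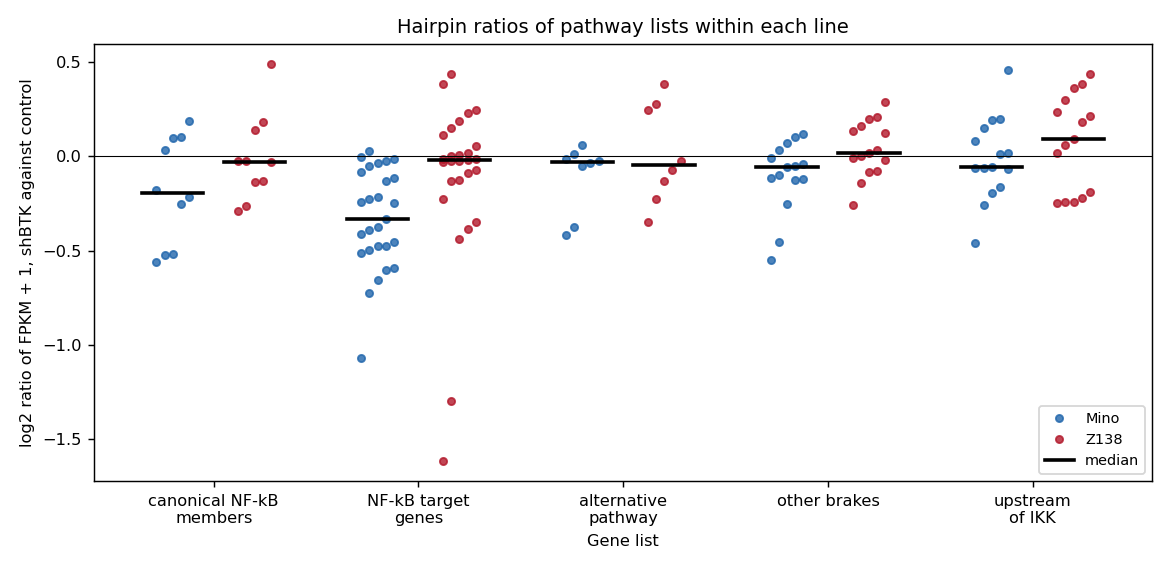
Log2 ratio of FPKM + 1, shBTK against control, for each tested gene of 5 lists in Mino (blue) and Z138 (red), with bars at the medians. The NF-kB target genes have a median of −0.33 in Mino and −0.02 in Z138, and the canonical members −0.20 and −0.03. Some target genes are also shown in other lists.

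The genes with the most similar profiles over the 4 libraries were sought for the 3 members with the widest range, among 7722 symbols, by the Euclidean distance between log2 profiles centred on their means. They were CYB5R2, H1F0 and TPM2 for NFKBIZ (distances 0.262 to 0.399), MX1, DACT3 and UNC13D for BCL3 (0.0616 to 0.0739) and BBC3, RAB29 and KCNA3 for REL (0.115 to 0.158). CYB5R2, for example, was at 0.241 and 0.140 FPKM in the Z138 shBTK and control libraries and at 39.0 and 47.8 in the Mino shBTK and control libraries. BBC3, which encodes the death protein PUMA, was at 10.2 and 10.1 FPKM in Z138 and at 39.3 and 52.6 in Mino. These profiles have 4 points and are set mainly by the difference between the lines.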

How the data were processed

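RNA was extracted with a column kit and sequenced after TruSeq RNA library preparation (Illumina), as the labels' protocols state. The deposited values are FPKM, 1 column per library, per the file headers. TopHat and hg19 are named in the submitters' processing notes, while any record of the FPKM program, its annotation or its use of strand was not given in the sources used here.

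Values were analysed as log2(FPKM + 1) where the 4 libraries averaged 1 FPKM or more (11484 symbols). The test across lines was limma 3.58.1 in R 4.3.3, with additive terms for line and hairpin, a mean-variance trend and Benjamini-Hochberg adjustment over all tested symbols at 0.05. The line pairs the libraries, and 1 residual degree of freedom remained per gene. For the hairpin, p-values set the mean of the 2 ratios against an error. That error combines the gap between the lines with a spread estimated over all tested symbols, and it does not measure the spread between separate cultures. For the line term the same residual was used, with no replicate culture of either line. The script was tested on simulated data. For GC content and length, each symbol's longest GENCODE 29 transcript was used (93.9% of tested symbols matched), and spline trends on both were removed as an alternative. Named genes were the 10 members and BTK, up to 3 genes of each list that averaged 5 FPKM or more and had the largest mean ratio among those with 1 sign in both lines, and the nearest profiles (3 for each of 3 members, among symbols above 0 in every library that averaged 5 FPKM or more, with unnamed and short noncoding genes left out). The members and lists were chosen with earlier results of these data known.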

Additional observations from a re-analysis of the deposited data

Results flagged for a closer look

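Of the 10 genes, 7 had hairpin ratios of opposite sign in the lines, as had 56.2% of all tested symbols, and the difference was not tested because each line had 1 pair of libraries. As the log2 ratio in Z138 minus that in Mino, the difference was 0.74 for NFKBIZ, 0.66 for REL and 0.39 for NFKB1, all higher in Z138. It was −0.29 for BCL3, −0.23 for RELA, −0.21 for IKBKB and −0.14 for NFKBIB, all lower in Z138. NFKBIZ and REL were the 2 scarcest of the genes in Z138, and REL in Z138 changed sign when GC and length trends were removed.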

How the results depend on the processing

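In limma, 0 of the 10 genes passed for the hairpin and 7 passed between the lines under every alternative tried. The number of all symbols called for the hairpin was 14, and it was 2 with no filter on low values, 9 at a mean of at least 5 FPKM, 28 without symbols listed at 0, 24 with median ratio scaling, 7 with the GC and length correction and 0 (9 at an unadjusted p under 0.05) with no replicate block, that is, without the line that pairs the libraries. For BTK the adjusted p was 0.101 with no filter and 1.00 without that block. With median ratio scaling 1 gene, NFKBIE, was past the lower threshold in Z138 (−0.35), and higher calls between the lines made up 49.8% of calls, against 42.5% as deposited. The mean hairpin difference reversed for NFKB1 (0.0095) and RELA (0.0067) with equal column sums and for RELA (0.0061) with the GC and length correction, and the line difference for NFKB1 (0.075) and RELA (0.12) with median ratio scaling and for TNFAIP3 (−0.0095) with equal column sums; the causes were not tested. The IkB to subunit ratio, as log2 of Z138 over Mino, was −0.92 with NFKBIA left out, −0.63 for NFKBIA alone and −0.12 with geometric means in the controls, and −0.93, −0.50 and −0.34 in the hairpin libraries, against −0.74 and −0.67. As log2 of hairpin over control in Z138 it was −0.21 with geometric means, against −0.01. With 1 line left out no test is possible, and the values are the ratios within a line. Read depth is unknown, so counting error could not be given, and with a pseudocount of 0.1 the ratio of NFKBIZ in Z138 was 0.77.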

Other observations

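Of the 15 genes between the antigen receptor and the kinase, 8 were lower and 3 were higher in Z138 in limma, beside 38.8% and 28.7% of all tested symbols. The following genes of this and the alternative pathway list were chosen after their values were seen. PRKCB, which encodes protein kinase C beta, was at 2.63 and 1.82 FPKM in the Z138 shBTK and control libraries and at 23.2 and 27.9 in the Mino shBTK and control libraries (log2 difference, Z138 minus Mino, −3.04, SE 0.17, adjusted p = 2.59e-06 in limma). TRAF2, an adaptor of the alternative pathway, was at 4.67 and 5.22 FPKM in Z138 and at 34.5 and 33.1 in Mino (−2.55, SE 0.13, adjusted p = 1.72e-06). NFKB2, which encodes the p100 precursor of that pathway, stood the other way, at 90.5 and 95.0 FPKM in Z138 and at 60.8 and 63.1 in Mino (0.57, SE 0.12, adjusted p = 0.00279).

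Of the 27 tested NF-kB target genes, 20 were lower and 3 were higher in Z138 in limma, beside the same shares of all tested symbols. CD44, an adhesion receptor gene named here for its low level in Z138, was at 0.0258 and 0.0437 FPKM in the Z138 shBTK and control libraries and at 70.0 and 106 in the Mino shBTK and control libraries. EBI3, a cytokine subunit gene named for the same reason, was at 0.378 and 0.172 FPKM in Z138 and at 22.9 and 38.5 in Mino. The 3 targets higher in Z138 were IL2RG, GADD45B and NFKB2, with log2 differences of 1.26, 0.89 and 0.57.

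In Mino, RBCK1, which encodes a subunit of the linear ubiquitin ligase, was the 1 gene of the list upstream of the kinase that was above 0.32 on the log2 scale (0.46). It was at 48.8 FPKM in the Mino shBTK library and 35.3 in the Mino control, and at 56.8 in the Z138 shBTK library and 64.8 in the Z138 control.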
